A study of Mus musculus with 11 samples.

Results

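The comparison described here is the effect of the surrogate agonist peptide Fat1562 on the transcriptome of clonotype+ vTreg53 Treg cells recovered from spleen and lymph nodes (Spl/LN). Its members are 6 of the 11 RNA-seq libraries of the study, 3 from mice given adjuvant/Fat1562 and 3 from mice given adjuvant alone, and the 12358 genes, of 52997 listed, whose mean count exceeded 10 in at least one of these groups once each library was scaled to the mean library total. The other 5 libraries, 2 of adjuvant alone and 3 of adjuvant/Fat1562, hold the same clone from visceral adipose tissue (VAT) and are used only for contrast.

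vTreg53 is a TCR cloned from one Treg cell of epididymal fat, carried here as a transgene, so all libraries come from a single clonotype. Donor CD45.2+ Treg cells with this TCR were transferred into CD45.1+ B6 hosts, which kept their own T cells. After 6 weeks the hosts were primed with complete Freund's adjuvant with or without Fat1562, boosted 1 week later with incomplete Freund's adjuvant with or without Fat1562, and cells from pooled spleen and lymph nodes were double-sorted 1 week after that, 1000 cells per library. All mice were labelled as males of 15 weeks. The labels call the control mice unimmunized and name PBS, whereas the study's text describes adjuvant without peptide, and the latter name is used below. In both accounts the groups differ by Fat1562, but if the labels are literal they also differ by adjuvant.

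Treg cells are CD4+ T cells that depend on the transcription factor Foxp3 and restrain other lymphocytes. When their TCR binds peptide on MHC class II, the kinase cascade starting at Lck and ZAP-70 switches on early response genes, and repeated stimulation moves cells from a central state, marked by the lymph node homing receptor Ccr7, towards an effector state with receptors for peripheral tissue, inhibitory receptors such as Lag3 and PD-1, and lineage factors such as T-bet. VAT Treg cells are an effector population that depends on PPARg, a nuclear receptor for lipids.

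Total counts ran from 4915820 to 5658594 in the 3 adjuvant libraries and from 4989852 to 6570057 in the 3 Fat1562 libraries. The clonotype was present throughout. The Vb4 segment gene Trbv2 took 96.4% to 97.8% of all Trbv counts, and the Va2 family Trav14 took 94.7% to 96.8% of all Trav counts. Trbv2 itself was called higher with Fat1562 (log2 fold change 0.30 ± 0.081, adjusted p = 0.043). That call was lost without adjuvant replicate 1 or 2 or Fat1562 replicate 2 or 3. Foxp3 had normalised read counts of 7308, 7632 and 7291 with adjuvant alone and 6719, 7211 and 7284 with Fat1562. It did not pass the test (log2 fold change -0.068 ± 0.069, adjusted p = 0.65). Of its exon bases, 18.6% are shared with a same-strand gene. Here and below a normalised read count is scaled to the mean library total, replicates are listed in the order 1 to 3, a log2 fold change is adjuvant/Fat1562 over adjuvant alone with its SE, and adjusted p is that of edgeR's quasi-likelihood test with Benjamini-Hochberg adjustment over all genes tested. Genes of the mitochondrial genome took 1.04% to 1.11% of counts with adjuvant alone and 0.775% to 0.826% with Fat1562, and cytosolic ribosomal protein genes 3.93% to 4.53% and 3.30% to 3.61%, so that both shares were separate between the groups.

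Marker sums of other cells were mostly low but uneven, and that of the plasma cell list was the highest. Summed over a list, markers of B cells stood at 48.3 to 80.1 CPM (counts scaled by the library total) with adjuvant alone and 49.5 to 75.6 with Fat1562, those of monocytes and macrophages at 13.2 to 29.5 and 18.5 to 25.9, those of neutrophils at 0.814 to 1.92 and 0.761 to 1.28, and those of adipocytes at 1.34 to 3.89 and 0.550 to 1.37. Markers of CD8 T and NK cells stood at 21.0 to 29.9 and 18.2 to 30.6, of gd T cells at 221 to 346 and 262 to 348, of stroma and endothelium at 98.3 to 107 and 96.6 to 114, and of red cells at 2.12 to 4.41 and 4.40 to 6.54. Eomes, Ccl19, Ccl21a, Cidec and Hbb-bt had no count in these 6 libraries. The dendritic cell list summed to 345 to 525 and 342 to 395, and the plasma cell list, which includes the Treg-expressed Irf4 and Xbp1, to 3669 to 4001 and 2638 to 2798. Most counts of the plasma cell list were of Ighm, the antibody heavy chain gene. Its raw counts were 17653, 15783 and 18446 with adjuvant alone and 12498, 11832 and 16246 with Fat1562. The source of these Ighm counts was not tested. Raw counts of Jchain, the antibody joining chain, were 0, 504 and 67 with adjuvant alone against 5, 6 and 2, and those of the MHC class II gene H2-Aa were 186, 8 and 30 against 3, 0 and 0. Of the genes in these marker lists, H2-Aa, H2-Ab1 and the plasma cell gene Derl3 were called lower and the NK receptor gene Klrb1c higher. The part of such cells in the other lower genes was not tested.

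Fat1562 immunization changed 541 of 12358 genes at an adjusted p below 0.05, or 4.38%. Of these, 348 (2.82%) were higher and 193 (1.56%) lower, and 117 and 82 of them changed by at least 2-fold. The median log2 fold change of the higher genes was 0.73, that of the lower genes -0.93, and that of all genes tested -0.0032. In 532 of the 541 the ranges of the groups did not overlap. Among all genes tested, 1433 (11.6%) had every Fat1562 library above every adjuvant library, and 1255 (10.2%) had every one below. Counts of called or separate genes in the lists below are to be read beside these shares. In bulk samples of this kind a smaller share of cells that express a gene and less RNA of it per cell cannot be told apart. The number called depended on single libraries. It fell to 210, of which 205 were in the set of 541, without Fat1562 replicate 2, to 353 without Fat1562 replicate 1 and to 348 without Fat1562 replicate 3. Of 148 called genes followed because they were named by rule or belonged to a list, 84 stayed called under all alternatives that tested them and 64 lost the call in at least 1. Calls lost on leaving out 1 Spl/LN library are given below with the gene.

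**Figure D1:**
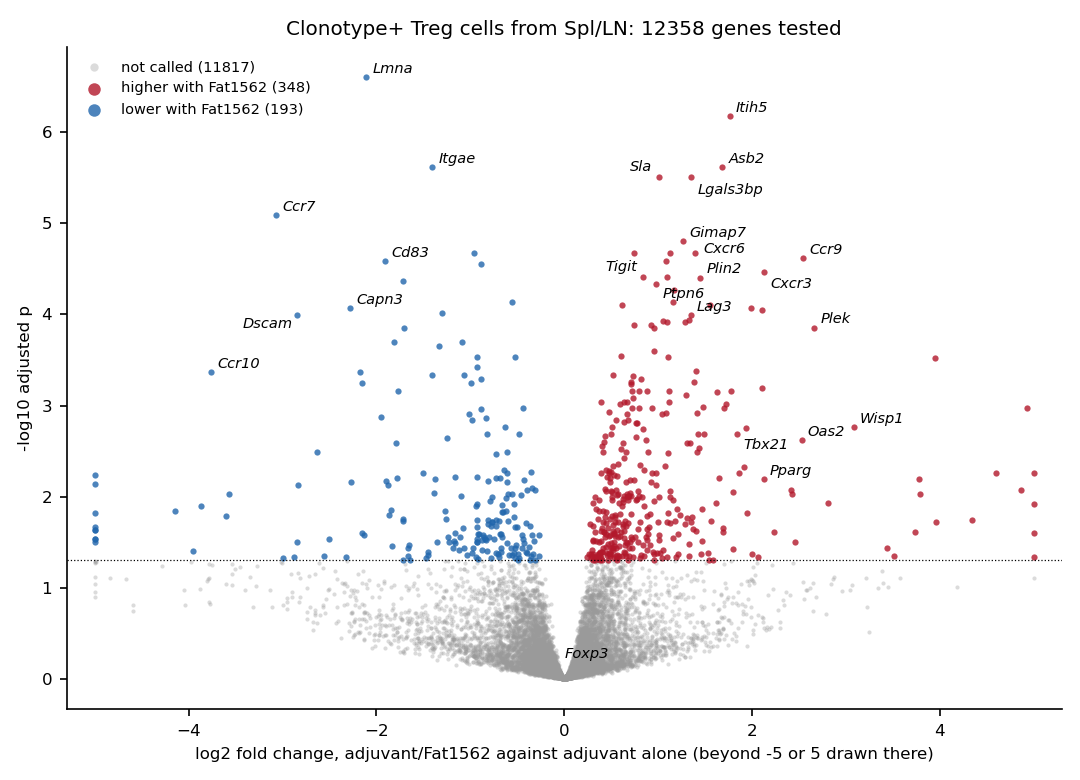
Each point is 1 of 12358 genes in Spl/LN Treg cells, with the log2 fold change of adjuvant/Fat1562 (n = 3) over adjuvant alone (n = 3) on the x axis and -log10 of the adjusted p on the y axis, and the dotted line at an adjusted p of 0.05. Red marks 348 genes called higher and blue 193 called lower. Lmna has the smallest p, Ccr7 and Ccr10 lie far to the left, Ccr9, Plek and Wisp1 to the right, and Foxp3 near 0.

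The receptors that steer Treg cells between tissues changed in both directions. Of 19 chemokine receptors tested, 5 rose and 5 fell, against 4.38% of all genes, with a median log2 fold change of 0.17. Ccr7, which guides T cells to the T zone of lymph nodes, had normalised counts of 957, 732 and 862 with adjuvant alone and 168, 44.7 and 90.1 with Fat1562. No Fat1562 library came near an adjuvant library (log2 fold change -3.07 ± 0.29, adjusted p = 8.2e-06). Ccr10, the receptor for the skin and mucosal chemokines CCL27 and CCL28, had counts of 395, 178 and 207 with adjuvant alone and 27.5, 24.5 and 6.38 with Fat1562 (log2 fold change -3.76 ± 0.51, adjusted p = 0.00043). Ccr9, the receptor for CCL25 of the small intestine, went the other way, with counts of 117, 232 and 202 with adjuvant alone and 1168, 1383 and 669 with Fat1562. The lowest Fat1562 library held nearly 3 times the count of the highest adjuvant library (log2 fold change 2.54 ± 0.27, adjusted p = 2.4e-05). Of its exon bases, 18.8% overlap a gene on the opposite strand, and whether counting used strand is not given in the sources used here.

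Cxcr3, which follows the interferon-induced chemokines CXCL9 and CXCL10, counted 242, 302 and 196 with adjuvant alone and 734, 1272 and 1210.0 with Fat1562 (log2 fold change 2.12 ± 0.23, adjusted p = 3.4e-05). Cxcr6, the CXCL16 receptor of tissue-resident lymphocytes, counted 339, 382 and 475 with adjuvant alone and 928, 1214 and 1009.8 with Fat1562, with all 3 Fat1562 libraries above all 3 of adjuvant alone (log2 fold change 1.40 ± 0.14, adjusted p = 2.1e-05). Cx3cr1, the fractalkine receptor, was also called higher but from almost nothing, with normalised counts of 3.84, 0 and 0.910 with adjuvant alone and 4.75, 41.5 and 25.5 with Fat1562. Gpr15, a receptor for homing to the large intestine, fell by 1.50 on the log2 scale (adjusted p = 0.0056), Ccr6, the CCL20 receptor, fell by 0.89 (adjusted p = 0.00051) and Ccr1 fell by 0.84 (adjusted p = 0.029). Of the 10 calls of the list, that of Ccr1 was lost without Fat1562 replicate 1 or 2 or adjuvant replicate 2 or 3, with an adjusted p of up to 0.15.

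**Figure D2:**
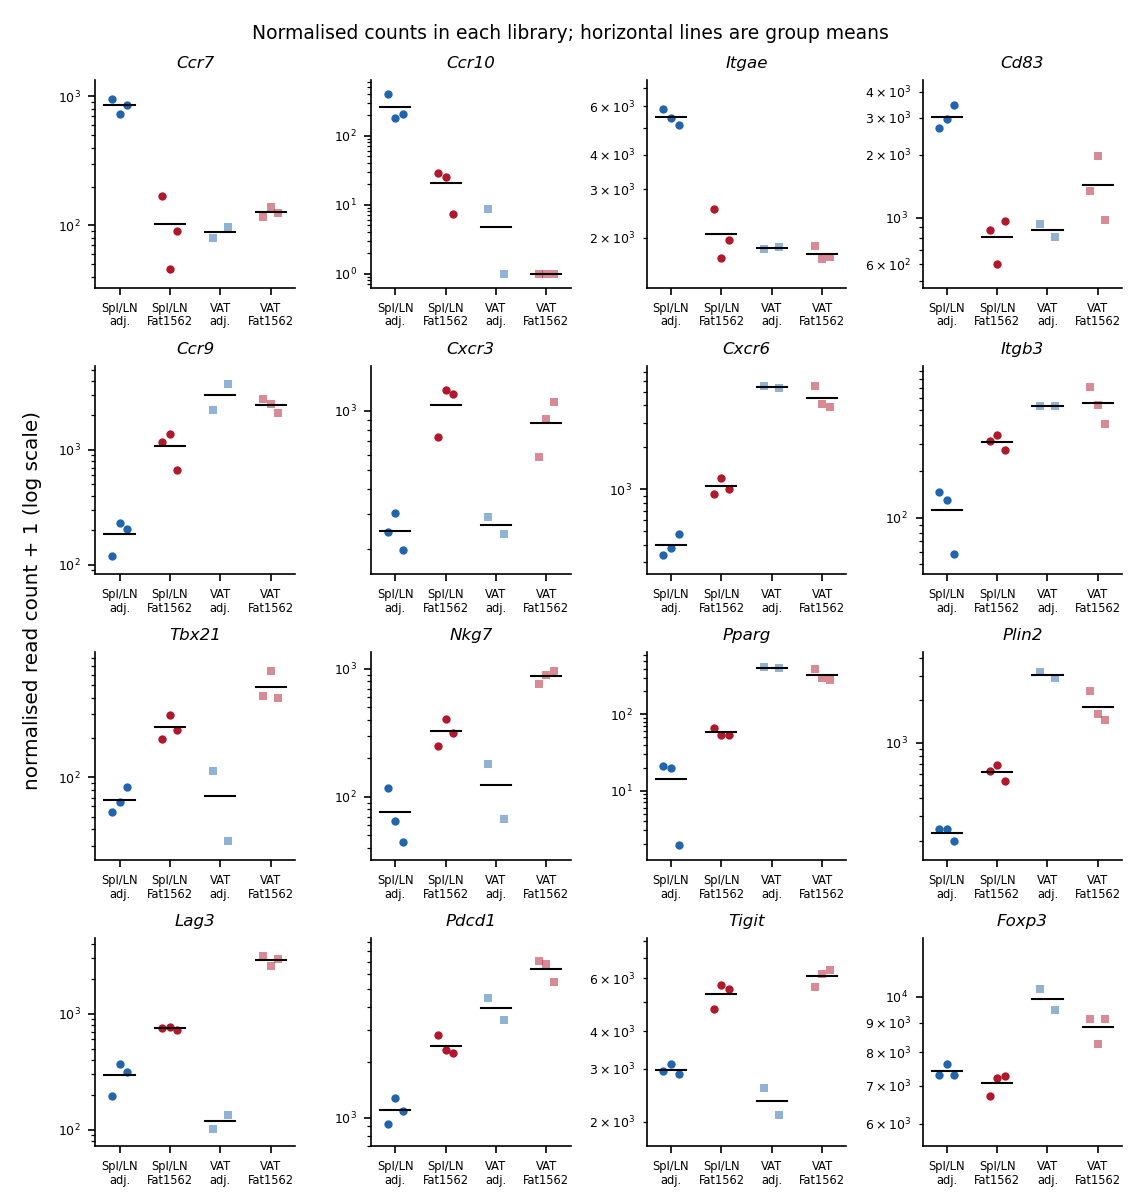
Normalised read count plus 1, on a log scale, in each library for 16 genes, with circles for Spl/LN, squares for VAT, blue for adjuvant alone, red for adjuvant/Fat1562, and a horizontal line at each group mean. In Spl/LN, Ccr7, Ccr10, Itgae and Cd83 are lower in all 3 Fat1562 libraries, 11 genes from Ccr9 to Tigit are higher in all 3, and Foxp3 did not pass the test.

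Integrins and other adhesion molecules changed in both directions, with 6 higher and 3 lower of 21 tested. That is 42.9% called, against 4.38% of all genes, and the median log2 fold change was 0.19. Itgae encodes CD103, the alpha chain that pairs with beta 7 to bind E-cadherin on epithelium. Its counts were 5839, 5422 and 5138 with adjuvant alone and 2546, 1688 and 1956 with Fat1562, so that each Fat1562 library held under 50% of any adjuvant library (log2 fold change -1.41 ± 0.12, adjusted p = 2.4e-06). Its partner Itgb7 moved the opposite way, from 12856 ± 906 to 17001 ± 1923 (mean ± SD, n = 3 each, as for such values below, with a log2 fold change 0.40 ± 0.11, adjusted p = 0.04), and so did Itga4, which pairs with beta 7 for gut homing and with beta 1 for inflamed vessels (log2 fold change 0.76 ± 0.13, adjusted p = 0.0022). Itgb3 counted 146, 129 and 57.3 with adjuvant alone and 313, 343 and 274 with Fat1562 (log2 fold change 1.49 ± 0.25, adjusted p = 0.0021), and Itgav, its partner in the vitronectin receptor, rose with a log2 fold change of 0.88 ± 0.13. Itgb1 fell by 0.81 on the log2 scale and Ly6c1 by 2.15, while Ly6a, or Sca-1, rose by 0.80 and Cd2 by 0.30. Ly6c1 counts were low, at 41.3, 38.4 and 27.3 with adjuvant alone and 4.75, 14.9 and 4.79 with Fat1562. Of its stretches of read length, 41.4% occur also in another gene. Cd44, the hyaluronan receptor, had a log2 fold change of -0.10 ± 0.093 (adjusted p = 0.6). The calls of Itgb7, Itgb1, Ly6c1 and Cd2 were lost when some single libraries were left out, Fat1562 replicate 3 among them for each, and the highest adjusted p was 0.22 for Itgb7.

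Some lineage factors of effector T cells rose. Of 20 regulators of effector Treg cells, 5 were higher and 0 lower (25.0% called, against 4.38% of all genes). The median log2 fold change was 0.28. Tbx21, which encodes T-bet, the factor of Th1 cells, counted 53.8, 63.3 and 82.8 with adjuvant alone and 195, 297 and 226 with Fat1562 (log2 fold change 1.84 ± 0.31, adjusted p = 0.0021). Its groups were far apart. Nfil3, a basic leucine zipper factor of effector Treg cells, rose by 0.75 on the log2 scale, Batf by 0.38 and Maf by 0.36, but the call of Batf was lost when any 1 of 5 Spl/LN libraries was left out, and that of Maf when any 1 of 4 was. Gata3, the Th2 factor that also serves tissue Treg cells, had a log2 fold change of -0.15 ± 0.12 (adjusted p = 0.53), Irf4 one of -0.31 ± 0.13 (adjusted p = 0.21) and Rora one of 0.18 ± 0.11 (adjusted p = 0.4).

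The median log2 fold change of the list of T-bet targets and Th1-like genes was 0.58. Of its 12 tested members, 6 were called (50%, against 4.38% of all genes), all higher. Among them were Tbx21 and Cxcr3, described above, with Nkg7, Ccl5 and Il12rb1. Nkg7, a granule membrane protein of cytotoxic cells, counted 117, 64.3 and 43.7 with adjuvant alone and 251, 409 and 313 with Fat1562 (log2 fold change 2.11 ± 0.31, adjusted p = 0.00064). Ccl5, the chemokine RANTES, counted 199.7, 243 and 232 with adjuvant alone and 353, 965 and 761 with Fat1562 (log2 fold change 1.62 ± 0.25, adjusted p = 0.00071), with the smallest rise in Fat1562 replicate 1. Il12rb1, a chain of the IL-12 and IL-23 receptors, rose from 835 ± 129 to 1355 ± 138, and its call was lost without Fat1562 replicate 2 (adjusted p = 0.063). The median of the list relative to the mean of the adjuvant libraries was between -0.075 and -0.0095 in the adjuvant libraries and between 0.54 and 0.73 in the Fat1562 libraries on the log2 scale.

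Inhibitory receptors rose in part. Of 16 tested, 4 were higher and 0 lower (25.0% called, against 4.38% of all genes), and the median log2 fold change of the list was 0.02. Lag3, which binds MHC class II, counted 195, 371 and 314 with adjuvant alone and 746, 763 and 728 with Fat1562 (log2 fold change 1.35 ± 0.17, adjusted p = 0.0001). Pdcd1, which encodes PD-1, counted 927, 1281 and 1087 with adjuvant alone and 2800.1, 2341 and 2251 with Fat1562 (log2 fold change 1.17 ± 0.13, adjusted p = 5.4e-05). Tigit, a receptor for CD155, counted 2958, 3104 and 2876 with adjuvant alone and 4750.4, 5681 and 5520.2 with Fat1562 (log2 fold change 0.84 ± 0.093), and Klrg1, which binds cadherins, rose from 5063 ± 452 to 7871 ± 1058. All 4 stayed called when any 1 library was left out. Ctla4 had a log2 fold change of 0.21 ± 0.09 and did not pass (adjusted p = 0.21). Among 18 costimulators of the TNF receptor and CD28 families, 16.7% were called, against 4.38% of all genes. Tnfrsf9 (4-1BB) rose by 0.93 and Tnfrsf1b (TNFR2) by 0.44 on the log2 scale. Tnfsf8 (CD30L) was called lower, a call that was lost whichever Spl/LN library was left out. For Tnfrsf4 (OX40) the log2 fold change was 0.17 ± 0.11 (adjusted p = 0.43), for Tnfrsf18 (GITR) 0.26 ± 0.095 (adjusted p = 0.13), for Cd28 0.39 ± 0.11 (adjusted p = 0.0538) and for Cd27 0.13 ± 0.094 (adjusted p = 0.5).

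In the lists of proximal TCR signalling components and of brakes, the genes called were all higher. Of 23 proximal components, Zap70, Cd4, Cd3g and Cd3d were higher and 0 lower (17.4% called, against 4.38% of all genes). The median log2 fold change was 0.12. Zap70, the kinase recruited to the phosphorylated TCR, counted 1876, 1996 and 1851 with adjuvant alone and 3017, 3389 and 3144 with Fat1562 (log2 fold change 0.74 ± 0.094, adjusted p = 0.00013). Cd4, the coreceptor, rose from 2386 ± 245 to 3383 ± 134, and Cd3g and Cd3d rose by 0.48 and 0.41 on the log2 scale. Of 28 brakes on TCR and MAP kinase signalling, Sla, Ptpn6, Sla2 and Sh2d2a were higher and 0 lower (14.3%, against 4.38% of all genes). Dusp1, a MAP kinase phosphatase placed in the list of AP-1 and stress-induced factors, was called lower (log2 fold change -0.93 ± 0.13). Sla encodes SLAP, an adaptor that brings TCR chains to ubiquitination, and counted 3057, 3237 and 3324 with adjuvant alone and 6212, 7155 and 6055 with Fat1562 (log2 fold change 1.01 ± 0.087, adjusted p = 3.1e-06). Ptpn6, the phosphatase SHP-1 that acts downstream of inhibitory receptors, counted 1618, 1693 and 1389.5 with adjuvant alone and 2918, 3301 and 3056 with Fat1562 (log2 fold change 0.98 ± 0.11, adjusted p = 4.6e-05). Sla2 overlaps the opposite-strand gene Rab5if over 23.6% of its exon bases. The call of Sh2d2a was lost when some single libraries were left out, with an adjusted p of up to 0.11.

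Early response genes were mixed. Of 22 reporters of TCR signal, Egr1, Tnfrsf9 and Nfatc1 were higher and Myc lower (18.2% called, against 4.38% of all genes). Egr1 counted 341, 488 and 528 with adjuvant alone and 928, 913 and 736 with Fat1562 (log2 fold change 0.92 ± 0.18, adjusted p = 0.0069), Nfatc1, the NFAT factor that amplifies its own expression, rose from 1506 ± 29.2 to 2504 ± 416, and Myc fell from 498 ± 26.4 to 281 ± 18.0 (log2 fold change -0.83 ± 0.14, adjusted p = 0.0021). Nr4a1, which encodes Nur77, had a log2 fold change of 0.50 ± 0.16 (adjusted p = 0.097), Egr2 of 0.43 ± 0.21 (adjusted p = 0.29) and Cd69 of 0.1 ± 0.12 (adjusted p = 0.71). Of 14 AP-1 and stress-induced factors, 35.7% were called, against 4.38% of all genes. Fosl2 and Batf were higher, and Fos, Junb and the phosphatase gene Dusp1 lower, by 0.99, 0.44 and 0.93 on the log2 scale. The calls of Fosl2 and Fos were lost when some single libraries were left out, with adjusted p values of up to 0.14 and 0.17. Crem, a repressor in the cAMP pathway, rose from 243 ± 8.91 to 517 ± 58.4, and Rgs1, which damps chemokine receptor signalling, fell from 1146 ± 36.0 to 618 ± 25.6, in both cases with no overlap between groups.

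Part of the genes induced by type I interferon rose. Type I interferon activates a complex that contains STAT2 and IRF9 and binds an element whose core repeats GAAA. Of 53 such genes tested, 10 were called higher (18.9%, against 2.82% of all genes) and 0 lower. The median was 0.34, and 45 had a positive log2 fold change, beside 6134 of all 12358 genes. In 28 every Fat1562 library was above every adjuvant library, against 11.6% of all genes. To show the promoters of some called genes, the letters GAAANNGAAA were searched on both strands in the 250 bases before the gene start, in RefSeq promoters of GRCm38.p6. All matches, which may overlap, are in capitals below, and the sequences run 5′ to 3′ on the gene's strand. Isg15 had 3 matches that overlap each other, Oas1a 2, Oas3 1 and Isg20 none. They lie at chr4:156200819-156201068 (minus strand), chr5:120907526-120907775 (minus strand), chr5:120777660-120777909 (minus strand) and chr7:78913174-78913423 (plus strand).
Isg15: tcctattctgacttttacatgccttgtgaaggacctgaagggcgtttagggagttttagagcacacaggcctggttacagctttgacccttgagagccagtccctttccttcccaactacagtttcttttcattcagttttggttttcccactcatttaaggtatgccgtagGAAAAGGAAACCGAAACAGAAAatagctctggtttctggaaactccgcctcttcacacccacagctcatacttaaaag
Oas1a: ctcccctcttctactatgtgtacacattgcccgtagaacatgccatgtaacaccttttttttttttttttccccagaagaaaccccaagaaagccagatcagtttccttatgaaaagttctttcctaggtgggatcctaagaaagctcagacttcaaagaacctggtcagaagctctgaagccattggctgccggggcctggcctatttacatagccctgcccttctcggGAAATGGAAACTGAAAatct
Oas3: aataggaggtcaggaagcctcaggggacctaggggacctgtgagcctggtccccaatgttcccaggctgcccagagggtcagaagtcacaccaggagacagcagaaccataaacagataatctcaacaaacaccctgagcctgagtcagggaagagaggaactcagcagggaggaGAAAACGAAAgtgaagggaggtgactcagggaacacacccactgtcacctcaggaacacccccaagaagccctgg
Isg20: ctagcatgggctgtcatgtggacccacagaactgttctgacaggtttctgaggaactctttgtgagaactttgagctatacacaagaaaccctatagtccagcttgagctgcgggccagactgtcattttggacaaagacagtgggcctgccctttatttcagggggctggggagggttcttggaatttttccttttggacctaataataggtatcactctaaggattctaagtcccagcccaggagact

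A promoter entry was found for 41 of the 53 genes, and 19 of these 41 (46.3%) held the letters, as did 3 of the 7 called genes with an entry. Of 8912 tested genes with an entry, 295 (3.31%) held them, and of all 32851 promoters in the table, 2.98%. In the interferon gamma list, in which no gene was called, 11 of 15 promoters (73.3%) held them. All 3 matching promoters of called genes are printed above, but of those without a match only that of Isg20 is. Lgals3bp, Parp12 and Ddx58 were also searched and had no match. A match is a description of the letters and not of a site in use. Isg15, a ubiquitin-like protein attached to viral and host proteins, counted 153, 166 and 184 with adjuvant alone and 284, 358 and 294 with Fat1562 (log2 fold change 0.89 ± 0.22, adjusted p = 0.026). The 2′-5′ oligoadenylate synthetases sense double-stranded RNA and activate RNase L. Oas2 counted 50.9, 32.2 and 8.19 with adjuvant alone and 205, 183 and 137 with Fat1562 (log2 fold change 2.53 ± 0.44, adjusted p = 0.0024), Oas3 counted 229, 200.2 and 371 with adjuvant alone and 462, 784 and 418 with Fat1562 (log2 fold change 1.05 ± 0.28, adjusted p = 0.039) and Oas1a counted 385, 381 and 537 with adjuvant alone and 655, 797 and 614 with Fat1562 (log2 fold change 0.66 ± 0.17, adjusted p = 0.032). In each of the 3 all Fat1562 libraries were above all adjuvant libraries. Of the stretches of read length in Oas1a, 64.4% occur also in another gene, so that its counts are uncertain. The same holds for Ifit3, given below, with 57.3%.

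Lgals3bp, a secreted ligand of galectin-3, had the smallest p of this list, with counts of 788, 909.8 and 816 with adjuvant alone and 2118, 2302 and 2009 with Fat1562 (log2 fold change 1.35 ± 0.12, adjusted p = 3.1e-06). Isg20, an exonuclease, rose by 0.84 on the log2 scale, Ifi27l2a by 0.70, Rtp4 by 0.66, Parp12 by 1.65, and Ddx58, which encodes the RNA sensor RIG-I, by 0.56. Members that did not pass included Irf7 with a log2 fold change of 0.11 ± 0.16 (adjusted p = 0.75), Ifit1 with 0.18 ± 0.23 (adjusted p = 0.72), Ifit3 with -0.37 ± 0.32 (adjusted p = 0.57) and Mx1 with 0.70 ± 0.24 (adjusted p = 0.11). Without Fat1562 replicate 2 only 3 members were called, and without any other 1 Spl/LN library 6 to 10. The Oas1a and Oas3 calls were lost without adjuvant replicate 1 or 2 or Fat1562 replicate 1 or 2, that of Isg15 without adjuvant replicate 1 or 2 or Fat1562 replicate 2 or 3, that of Rtp4 when any 1 of 5 libraries was left out, and those of Ddx58, Ifi27l2a and Parp12 without Fat1562 replicate 2. The list's median log2 fold change was positive under all 20 alternatives, between 0.25 and 0.39. Of 25 genes of the interferon gamma response, chiefly GBP and IRG GTPases, none was called, with a median of 0.19. For Gbp2, its log2 fold change was 0.17 ± 0.13 (adjusted p = 0.54). In 22 genes of MHC class I and peptide loading none was called either, with a median of 0.09.

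GIMAP genes encode small GTPases of the lymphocyte endomembranes that support T cell survival, and lie in one cluster on mouse chromosome 6. All 8 tested members had a positive log2 fold change, beside 6134 of all 12358 genes. Of the 8, 5 (62.5%) were called higher, against 2.82% of all genes, and the median was 0.45. Gimap4 counted 3206, 4621 and 4448 with adjuvant alone and 8188, 9757 and 8884 with Fat1562 (log2 fold change 1.13 ± 0.12, adjusted p = 2.1e-05). Gimap7 counted 982, 1319 and 1507 with adjuvant alone and 2806, 3385 and 2970.3 with Fat1562 (log2 fold change 1.27 ± 0.12, adjusted p = 1.6e-05). Gimap6, Gimap5 and Gimap9 rose by 0.48, 0.48 and 0.43 on the log2 scale. The calls of Gimap5 and Gimap9 were lost without Fat1562 replicate 2 or 3, among others, while without adjuvant replicate 2 there were 7 calls. None of the 8 promoters held the letters searched above.

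Genes typical of visceral-fat Treg cells included more calls than most lists, with 12 higher and 3 lower of 37 tested. That is 40.5% called, against 4.38% of all genes, and the median log2 fold change was 0.25. All 12 higher genes stayed called when any 1 Spl/LN library was left out. Pparg counted 20.2, 18.7 and 0.910 with adjuvant alone and 64.6, 53.2 and 53.4 with Fat1562, so that 1 adjuvant library was at 0.910 and all Fat1562 libraries were above 50 (log2 fold change 2.12 ± 0.42, adjusted p = 0.0063). Its level in VAT was 415 and 401 with adjuvant alone and 394, 304 and 282 with Fat1562, several times higher than in any Spl/LN library. The Pparg call was lost when only the 6 Spl/LN libraries were fitted. Plin2, which coats lipid droplets, counted 239, 239.6 and 198 with adjuvant alone and 628, 685 and 533 with Fat1562 (log2 fold change 1.45 ± 0.16, adjusted p = 4.0e-05). Lgals3, which encodes galectin-3, counted 588, 502 and 575 with adjuvant alone and 1079, 1354 and 1105 with Fat1562 (log2 fold change 1.09 ± 0.18, adjusted p = 0.0012). The calcium-binding S100a4 and S100a6 rose by 0.71 and 0.62 on the log2 scale, though 51.7% of the exon bases of S100a4 are shared with a same-strand gene, and Zbtb7b, which encodes ThPOK, by 0.80. The other higher genes were Cxcr6, Tnfrsf9, Itgav, Tigit, Nfil3 and Klrg1, given above. The 3 lower genes were Itgae, Ccr1 and Dgat2, an enzyme of triglyceride synthesis that fell by 1.08. With adjuvant alone, mean Itgae was lower in VAT than in Spl/LN (1831 against 5466), while Ccr1 and Dgat2 were higher (2116 against 200 and 1526 against 246). Of the 12 higher genes, Tigit was lower in VAT (2344 against 2979) and the others higher, Zbtb7b least (292 against 268). The 12 and 3 thus count list members, and not changes towards or away from the VAT level. Il1rl1, which encodes the IL-33 receptor ST2, had a log2 fold change of -0.47 ± 0.18 (adjusted p = 0.15), and Il10 one of 1.42 ± 0.44 (adjusted p = 0.082).

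Lipid genes were otherwise split. Srebf2, the master regulator of cholesterol synthesis, counted 513, 592 and 529 with adjuvant alone and 752, 880.0 and 733 with Fat1562 (log2 fold change 0.53 ± 0.13, adjusted p = 0.025), but its call was lost without Fat1562 replicate 1 or 2 or adjuvant replicate 1 or 3. It was the only call among 29 genes of cholesterol synthesis and uptake (3.45%, against 4.38% of all genes), whose median was 0.04. Hmgcs1 and Sqle, enzymes of that pathway, had log2 fold changes of 0.41 ± 0.20 (adjusted p = 0.27) and 0.33 ± 0.24 (adjusted p = 0.51). Of 21 genes of efflux and storage, Pparg and Plin2 were higher, and Dgat2, Abca1 and Abcg1 lower (23.8% called, against 4.38% of all genes). Abca1, the exporter that loads cholesterol onto apolipoprotein A-I, counted 117, 79.9 and 105 with adjuvant alone and 48.4, 14.9 and 19.1 with Fat1562 (log2 fold change -1.87 ± 0.42, adjusted p = 0.016), and Abcg1 fell by 0.61 on the log2 scale (adjusted p = 0.0032). The Abca1 and Dgat2 calls were lost without Fat1562 replicate 2 or 3, and that of Dgat2 also without adjuvant replicate 1 or 2. Dgat1 had a log2 fold change of 0.39 ± 0.12 (adjusted p = 0.088).

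Survival genes included opposing changes. Of 15 members of the BCL2 family, 3 rose and 1 fell (26.7% called, against 4.38% of all genes). Bcl2, which blocks mitochondrial cell death, counted 219.9, 257 and 165 with adjuvant alone and 108, 89.4 and 50.2 with Fat1562 (log2 fold change -1.38 ± 0.27, adjusted p = 0.0063). Bcl2l11, which encodes its antagonist BIM, counted 113, 82.0 and 80.1 with adjuvant alone and 286, 200.0 and 194 with Fat1562 (log2 fold change 1.30 ± 0.23, adjusted p = 0.0026), and Pmaip1, which encodes NOXA, rose by 1.07 on the log2 scale. Bcl2a1d, one of several near-identical copies between which reads cannot be assigned with certainty, was also called higher, and its call was lost when any 1 of 5 Spl/LN libraries was left out.

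Of 13 cytokine and chemokine genes tested, Ccl5 was higher and Lta, Tnf, Ltb and Ccl1 were lower (38.5% called, against 4.38% of all genes). Lta, lymphotoxin alpha, counted 148, 174 and 164 with adjuvant alone and 51.3, 26.6 and 55.8 with Fat1562 (log2 fold change -1.85 ± 0.41, adjusted p = 0.014), and Tnf counted 289.9, 396 and 339 with adjuvant alone and 231, 182 and 127 with Fat1562 (log2 fold change -0.93 ± 0.21, adjusted p = 0.018). Ltb fell by 0.43 on the log2 scale. Ccl1 counted 0.960, 28.0 and 24.6 with adjuvant alone and 0, 0 and 0 with Fat1562, and with every Fat1562 library at 0 no fold change is given. These 4 calls were all lost without Fat1562 replicate 2, and those of Tnf, Ltb and Ccl1 also without other single libraries, with an adjusted p of up to 0.13 for Ltb. Of 40 cytokine receptors, JAK-STAT components and SOCS genes, 4 were higher and 3 lower (17.5% called, against 4.38% of all genes). Ifngr1, the ligand-binding chain of the interferon gamma receptor, rose from 3093 ± 294 to 4694 ± 397 (log2 fold change 0.60 ± 0.082, adjusted p = 0.00028), and Il2rg, the common gamma chain, rose by 0.33 on the log2 scale, though 30.5% of its exon bases are shared with a same-strand gene. Il1r1 was called from near 0, with counts of 0.960, 1.04 and 0 with adjuvant alone and 24.7, 11.7 and 19.1 with Fat1562. Il6ra and Il6st, the chains of the IL-6 receptor, fell by 1.33 and 0.67, and Socs3, the inhibitor induced by that receptor, by 0.93. Il2ra, which encodes CD25, had a log2 fold change of -0.39 ± 0.15 (adjusted p = 0.15). The Il2rg and Il6st calls were lost without Fat1562 replicate 2 or 3.

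Of 20 Treg identity genes tested, Itgae, Lrrc32 and Nrp1 were lower, and Cd2 and Swap70 higher (25.0% called, against 4.38% of all genes). The calls of Cd2 and Swap70 were lost when some single libraries were left out. Lrrc32 encodes GARP, which presents latent TGFb on the cell surface, and counted 541, 794 and 595 with adjuvant alone and 339.9, 279 and 347 with Fat1562 (log2 fold change -0.99 ± 0.15, adjusted p = 0.00057). Nrp1, a surface marker of thymic Treg cells, fell from 2418 ± 241 to 1593 ± 325 (log2 fold change -0.60 ± 0.12, adjusted p = 0.0093). Ikzf2, which encodes Helios, had a log2 fold change of 0.16 ± 0.085 (adjusted p = 0.34). Among 16 suppressive effectors, Lag3, Lgals3 and Il1rn were higher (18.75% called, against 4.38% of all genes). Gzmb, which encodes granzyme B, had a log2 fold change of 0.45 ± 0.28 (adjusted p = 0.42).

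In the list of central T cell and lymphoid homing genes, 4 of 24 were lower, namely Ccr7, Bcl2, Foxp1 and Slamf6, and 2 were higher. That is 25.0% called, against 4.38% of all genes, and the median log2 fold change was -0.10. Foxp1, a factor of T cell quiescence, counted 823, 634 and 773 with adjuvant alone and 377, 323 and 350.1 with Fat1562 (log2 fold change -1.08 ± 0.14, adjusted p = 0.0002). Slamf6, or Ly108, fell by 0.60 on the log2 scale, a call lost without Fat1562 replicate 2 or adjuvant replicate 2. The 2 higher genes were Itgb7 and Itga4. Tcf7, which encodes TCF-1, had a log2 fold change of -0.79 ± 0.29 (adjusted p = 0.15), Lef1 of -0.11 ± 0.11 (adjusted p = 0.65) and Klf2 of 0.31 ± 0.29 (adjusted p = 0.61).

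Several of the largest changes belonged to no list. Lmna, which encodes the nuclear lamina proteins lamin A and C, had the smallest p of all genes, with counts of 1034, 742 and 822 with adjuvant alone and 220.3, 185 and 197 with Fat1562 (log2 fold change -2.11 ± 0.14, adjusted p = 2.5e-07). Itih5, an inter-alpha-trypsin inhibitor heavy chain that binds hyaluronan, came next, with counts of 316, 327 and 353 with adjuvant alone and 1237, 1194 and 946 with Fat1562 (log2 fold change 1.76 ± 0.13, adjusted p = 6.7e-07). Asb2, a substrate receptor of a cullin ubiquitin ligase, counted 489.6, 722 and 722 with adjuvant alone and 1929, 2235 and 2034 with Fat1562 (log2 fold change 1.68 ± 0.14, adjusted p = 2.4e-06). The 3 genes were among the 10 with the smallest p, which favours a small spread beside the gap between groups. Wisp1, a secreted matricellular protein, had the largest rise among called genes with separate groups and a mean of at least 100 in the higher group, with counts of 10.6, 28.0 and 0.910 with adjuvant alone and 67.4, 123 and 136 with Fat1562 (log2 fold change 3.08 ± 0.52, adjusted p = 0.0017). Plek, the protein kinase C substrate pleckstrin, counted 22.1, 14.5 and 16.4 with adjuvant alone and 61.7, 152 and 125 with Fat1562 (log2 fold change 2.66 ± 0.34, adjusted p = 0.00014).

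Among the 15 largest rises were also Traj58, a joining segment of the TCR alpha locus (log2 fold change 1.99 ± 0.24), the pseudokinase Prag1 (1.94 ± 0.33), Cybb, the catalytic subunit of the phagocyte NADPH oxidase (1.80 ± 0.37), the vesicle glycoprotein Sv2c (1.77 ± 0.27) and the beta tubulin Tubb6 (1.72 ± 0.27). The rule for the largest rises required separate groups. Cybb counted 69.1, 207 and 42.8 with adjuvant alone and 334, 333 and 432 with Fat1562. Il1rn, the IL-1 receptor antagonist, counted 2.88, 13.5 and 62.8 with adjuvant alone and 97.8, 145 and 99.7 with Fat1562, and its call was lost without Fat1562 replicate 1, 2 or 3 or adjuvant replicate 1 or 2 (adjusted p of up to 0.17).

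Among the 15 largest falls, Cd83, an activation marker that stabilises MHC class II on the surface, counted 2679.6, 2966 and 3472 with adjuvant alone and 869, 602 and 959.5 with Fat1562 (log2 fold change -1.90 ± 0.20, adjusted p = 2.6e-05). The cell adhesion molecules Dscam and Jaml fell by 2.85 and 2.63 on the log2 scale, and the calpain protease Capn3 fell by 2.28. On the same scale the vesicle protein Nsg2 fell by 2.18, the peptidoglycan sensor Nod1 fell by 2.16 and Prune2 fell by 1.89. Lrig1, a receptor tyrosine kinase inhibitor, fell by 1.81 and the aquaglyceroporin Aqp3 fell by 1.79. Each of them had every Fat1562 library below every adjuvant library, which the rule for the largest falls required. H2-Ab1, an MHC class II chain of antigen-presenting cells, was also called lower (log2 fold change -2.83 ± 0.57, adjusted p = 0.0074), but its counts were 231, 34.2 and 64.6 with adjuvant alone and 16.1, 20.2 and 10.4 with Fat1562, with adjuvant replicate 1 holding most of the signal. Without that library the log2 fold change was -1.68. It moved with H2-Aa, whose raw counts are given above.

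Most genes of the ribosome and of the mitochondrial genome had negative log2 fold changes. Of 82 cytosolic ribosomal protein genes, 81 had a negative log2 fold change and the median was -0.26. Of all 12358 genes, 6134 had a positive one. In 50 of the 82 every Fat1562 library was below every adjuvant library, against 10.2% of all genes. The test called 10 (12.2%), all lower, against 1.56% of all genes called lower, and the count was 0 without Fat1562 replicate 2, 1 without Fat1562 replicate 1 or adjuvant replicate 3, 2 without adjuvant replicate 2, 3 without Fat1562 replicate 3 and 26 without adjuvant replicate 1. The median was negative under all 20 alternatives, from -0.33 to -0.17. Rps4x, with the smallest p of them, counted 6323, 6557 and 6832 with adjuvant alone and 5219, 4901 and 5379 with Fat1562 (log2 fold change -0.35 ± 0.07, adjusted p = 0.008). Ribosomal protein genes have many pseudogenes, so that part of their reads is uncertain. Of 34 translation factors none was called, with a median of -0.06, and Eef1a1 had a log2 fold change of -0.14 ± 0.052 (adjusted p = 0.15).

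Of 30 ribosome assembly genes and Myc targets, 6 were lower and 0 higher, with a median of -0.30. Npm1, nucleophosmin, fell from 2761 ± 175 to 1972 ± 91.7 (log2 fold change -0.49 ± 0.083, adjusted p = 0.0021), and the other 5, Ncl, Nop56, Nop58, Wdr43 and Mybbp1a, fell by 0.35 to 0.53 and each lost its call without at least 4 of the 6 Spl/LN libraries in turn. Of 11 genes of the mitochondrial genome, all had a negative log2 fold change, where 6134 of all 12358 genes had a positive one. The median of the 11 was -0.53. The test called 4 (36.4%) lower, against 1.56% of all genes. In 9 every Fat1562 library was below every adjuvant library, against 10.2% of all genes. mt-Nd1, a subunit of complex I, counted 16509, 16620.0 and 16053 with adjuvant alone and 11091, 10462 and 11786 with Fat1562 (log2 fold change -0.56 ± 0.066, adjusted p = 7.4e-05). mt-Nd5, mt-Nd2 and mt-Cytb fell by 0.53, 0.54 and 0.35 on the log2 scale, and the call of mt-Nd2 was lost without Fat1562 replicate 1. By contrast, none of 71 nuclear genes of oxidative phosphorylation was called, with a median of -0.04. Whether the lower share of mitochondrial transcripts bears on other genes was not tested.

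**Figure D3:**
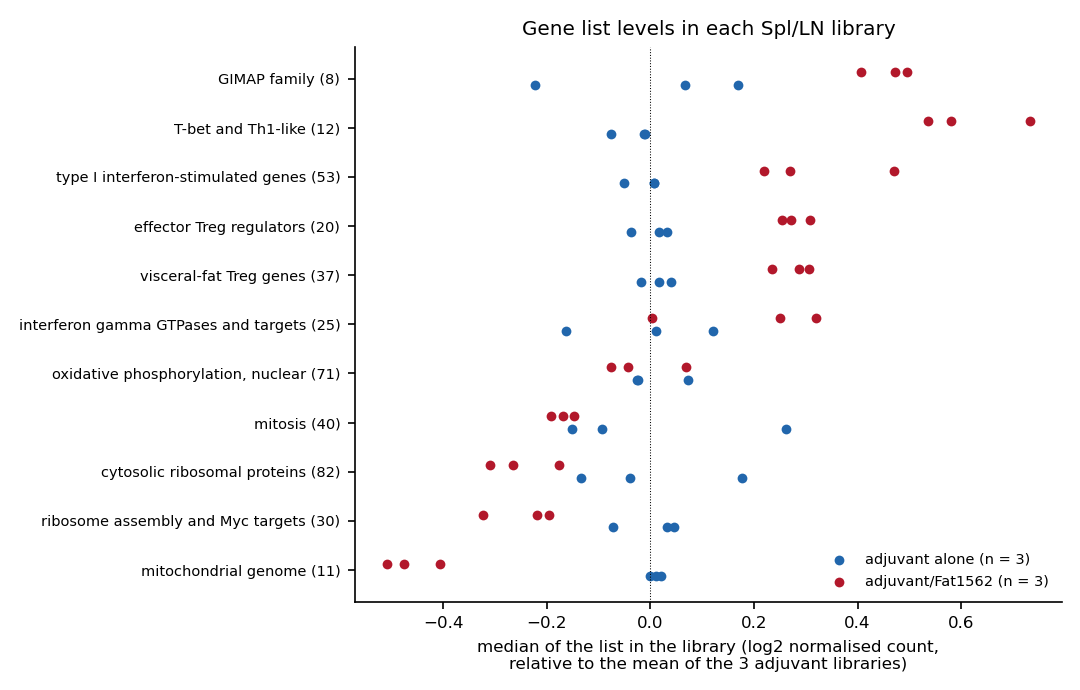
Median of each gene list in each Spl/LN library, as log2 normalised count relative to the mean of the 3 adjuvant libraries, blue for adjuvant alone and red for adjuvant/Fat1562, with the number of genes tested in parentheses. The GIMAP, T-bet, type I interferon, effector and visceral-fat lists lie to the right in all 3 Fat1562 libraries, and the ribosomal protein, ribosome assembly and mitochondrial genome lists to the left, while the nuclear oxidative phosphorylation list and the interferon gamma list overlap.

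Calls in the cell cycle lists were near or below the 4.38% of all genes. Of 41 E2F targets none was called, with a median log2 fold change of -0.10 that became 0.029 without adjuvant replicate 1, and of 40 mitosis genes Prc1 and Smc4 were lower, by 0.62 and 0.43 on the log2 scale, with a median of -0.20. The call of Prc1 was lost without Fat1562 replicate 2 or 3. In 9 of the 40 mitosis genes every Fat1562 library was below every adjuvant library, and in 0 above. For the 41 E2F targets these counts were 4 and 1. Among all genes, 10.2% were separate below and 11.6% above. Adjuvant replicate 1 stood apart in both lists. The median level of the E2F targets was 0.23 in it, -0.12 and -0.17 in the other adjuvant libraries and -0.12 to -0.014 in the Fat1562 libraries, and that of the mitosis genes was 0.26 against -0.094 and -0.15 for the other adjuvant libraries and -0.19 to -0.15 for the Fat1562 libraries. Mki67, which encodes Ki-67, had a log2 fold change of 0.079 ± 0.13 (adjusted p = 0.79), and Top2a one of -0.28 ± 0.13 (adjusted p = 0.24). Of 23 glycolysis genes, Pfkp rose by 0.53 and Egln3 fell by 0.97 on the log2 scale (8.70% called, against 4.38% of all genes). The call of Egln3 was lost when some single libraries were left out. For Ldha and Slc2a1 the log2 fold changes were 0.27 ± 0.084 (adjusted p = 0.085) and -0.31 ± 0.25 (adjusted p = 0.55). Of 29 heat shock proteins, Hspa8, Dnaja1 and Dnajb1 were called higher (10.3%, against 2.82% of all genes). Fat1562 replicate 1 was the highest for each. Dnajb1, for example, counted 608, 667 and 697 with adjuvant alone and 1832, 1331 and 759 with Fat1562. Without Fat1562 replicate 1 or 2 or adjuvant replicate 2 none of the list was called. Of the stretches of read length in Hspa8, 42.6% occur also in another gene.

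Among the remaining lists, of 31 TNF and NF-kB targets 2 were higher, Bcl2a1d and Traf1, and 2 lower, Cd83 and Tnf, so that 12.9% were called against 4.38% of all genes, with a median of -0.03. Traf1 (log2 fold change 0.36 ± 0.098) lost its call without Fat1562 replicate 2 or 3 or adjuvant replicate 1 or 3, and Nfkbia and Icam1 had log2 fold changes of -0.17 ± 0.12 (adjusted p = 0.5) and 0.19 ± 0.11 (adjusted p = 0.37). In 17 ATF4 targets and amino acid transporters only Ddit4 was called (log2 fold change 0.63 ± 0.15), or 5.88% of the list. Its call was lost without some single libraries, among them Fat1562 replicate 1 (adjusted p = 0.11). Of 20 RGS and cAMP genes, Crem and Gnai2 were higher and Rgs1 lower (15.0% called), and the Gnai2 call was lost when any 1 of 5 Spl/LN libraries was left out. None of 31 proteasome genes, 20 aminoacyl-tRNA synthetases or 18 mRNA decay factors was called, with medians of 0.02, -0.01 and 0.05.

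**Figure D4:**
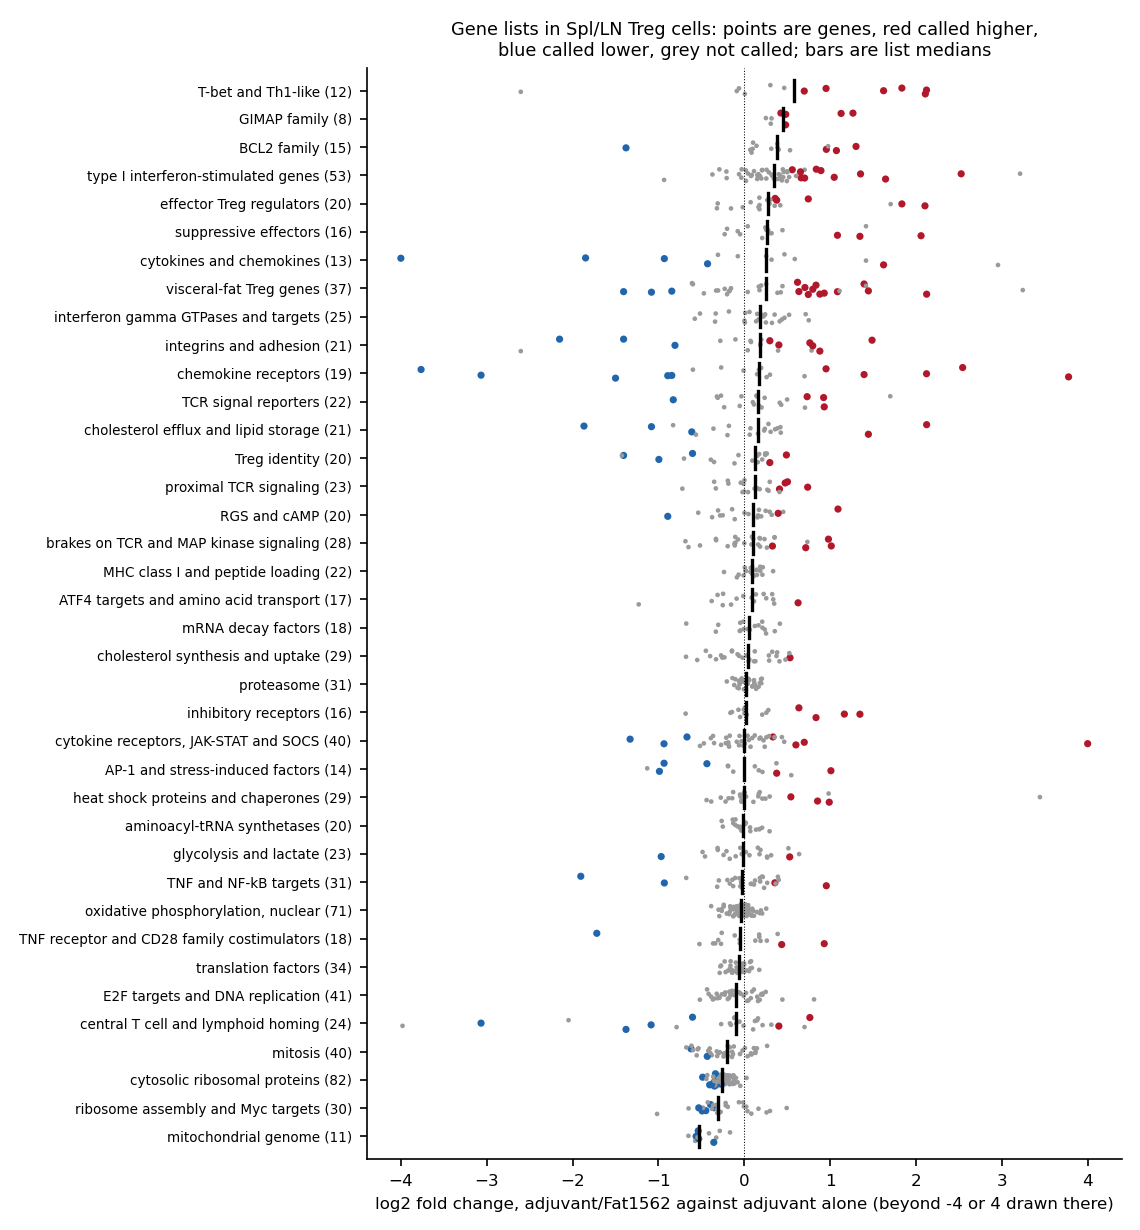
Log2 fold change of adjuvant/Fat1562 over adjuvant alone in Spl/LN for every tested gene of 38 lists, ordered by the list median (black bar), with the number of genes in parentheses, red for genes called higher, blue for called lower and grey for the rest. T-bet and GIMAP lists head the order with medians of 0.58 and 0.45, and the mitochondrial genome closes it at -0.53.

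To ask which of these changes differed from those in adipose tissue, the effect of Fat1562 was compared with that in VAT by a test of the interaction between tissue and immunization. Whether Spl/LN and VAT libraries came from the same mice is not given in the sources used here. Of 12358 genes, 494 (4.0%) passed. Of the 541 genes called in Spl/LN, 130 did, 85 of those higher and 45 of those lower. A larger share among the 541 follows from their selection, because the interaction contains the same Spl/LN contrast. In VAT, 243 of the 348 higher genes had a positive log2 fold change, with a median of 0.29, and 134 of the 193 lower genes had a negative one, with a median of -0.35. Lmna, Tbx21, Cxcr3, Zap70 and Ptpn6 changed in the same direction in VAT, with log2 fold changes there of -2.24, 2.74, 1.71, 0.82 and 0.99. For these 5 the difference between tissues did not pass (adjusted p of 0.61 for Cxcr3, 0.81 for Lmna, 0.35 for Tbx21, 0.84 for Zap70 and 0.99 for Ptpn6).

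Homing receptors were among the genes whose change differed. Ccr7 stood in VAT at 79.6 and 96.9 with adjuvant alone and 115, 138 and 124 with Fat1562, so that the Spl/LN cells given Fat1562 were near the VAT level and those given adjuvant alone far above it (interaction -3.58 on the log2 scale, adjusted p = 0.00018). Ccr9 stood in VAT at 2218 and 3756 and 2771, 2512 and 2099.7, above all Spl/LN libraries (interaction 2.82, adjusted p = 0.00025). Cxcr6 stood in VAT at 5545 and 5358 and 5498, 4095 and 3907 (interaction 1.67, adjusted p = 0.00014). Itgae stood at 1819 and 1843 and 1869.8, 1677 and 1699, close to the Spl/LN level after Fat1562 (interaction -1.34, adjusted p = 0.00027).

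Lag3 rose in both tissues but more in VAT, from 101 and 133 to 3123, 2576 and 2943, with a log2 fold change there of 4.62 (interaction -3.28, adjusted p = 4.2e-06). Lrrc32 fell in Spl/LN and rose in VAT, by 2.07 on the log2 scale (interaction -3.06, adjusted p = 1.8e-06). Egr1 and Plin2 did the reverse, with VAT log2 fold changes of -2.24 and -0.76 (interactions 3.16 and 2.21, adjusted p = 5.9e-06 and 2.7e-05). Lgals3, S100a4 and Klrg1 also fell in VAT, by 0.76, 0.51 and 0.43. Median log2 fold changes in VAT were 0.65 for E2F targets and 0.70 for mitosis genes, 0.10 for ribosomal proteins and -0.44 for visceral-fat genes, beside -0.10, -0.20, -0.26 and 0.25 in Spl/LN. These are given side by side and not tested as lists.

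**Figure D5:**
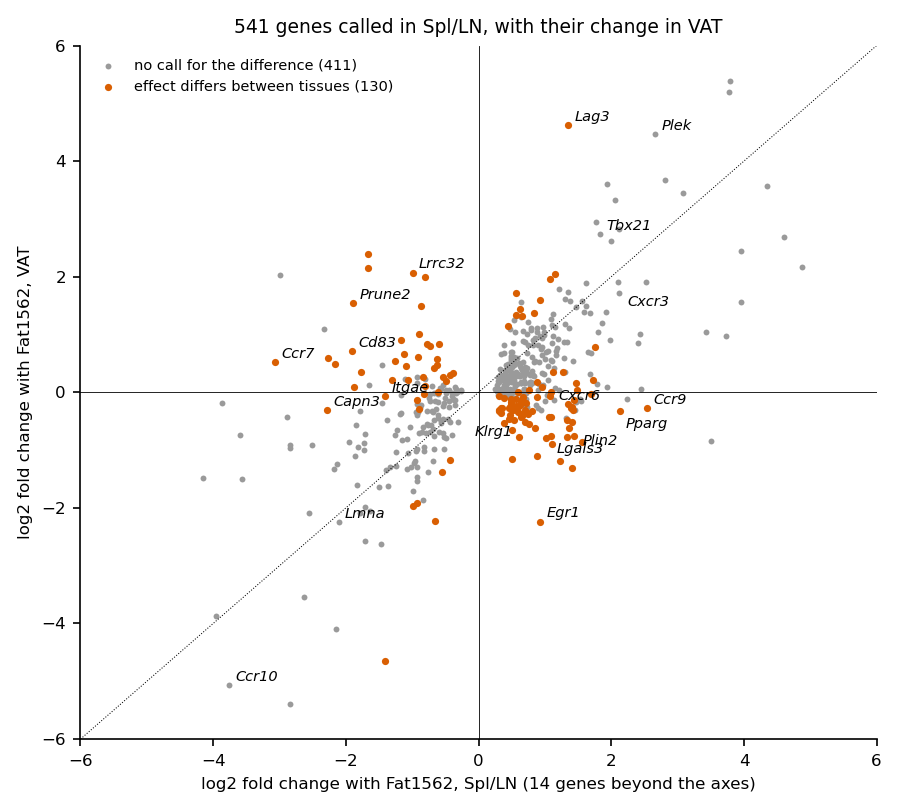
Log2 fold change with Fat1562 in Spl/LN (x axis) and in VAT (y axis) for the 541 genes called in Spl/LN, with 14 beyond the axes. Orange marks 130 genes whose effects differ by the interaction test, grey the other 411, and the dotted line equal effects. Lag3, Lrrc32, Ccr7 and Cd83 lie above the line and Egr1, Ccr9 and Plin2 below it.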

How the data were processed

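The authors deposited one table of raw counts, whole numbers per gene symbol for 52997 genes and without normalization, from Smart-seq2 libraries read as paired ends of 38 bases after 18 PCR cycles. The submitters' processing notes list STAR 2.5.4, featureCounts and the build mm10, and the study's methods name Cuffquant with a filter on expression and spread. The annotation and use of strand are not given in the sources used here. No molecular identifiers are named. All columns matched a library.

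Counts were fitted with edgeR 4.0.16 (R 4.3.3, TMM scaling, quasi-likelihood test) over all 11 libraries in 4 groups, which share one estimate of the spread, and the contrasts were Fat1562 against adjuvant alone in Spl/LN and its interaction with tissue. Genes with a mean above 10 in either Spl/LN group were tested, and a gene was called at a Benjamini-Hochberg adjusted p under 0.05. SE is the log2 fold change over the root of its F statistic, with a prior count of 0.125. Library medians of lists used a pseudocount of 1. Named genes are the 15 largest rises and 15 largest falls among called genes with separate groups and a mean of at least 100 in the higher group, leaving out predicted genes (Gm and Rik names) and -ps pseudogenes, the 10 smallest p, Pparg, Nfil3, Srebf2, Foxp3, Cd4 and the clonotype's V genes, and members of the lists described. Members and lists were chosen with earlier results of these data known, so no list is independent evidence. The study calls its replicates biological, but neither it nor the labels say whether they come from separate mice, and p-values may measure only technical spread. Replicates of a group differed by more than sampling noise (chi-square over its degrees of freedom, 5.62 to 11.9). Replicate numbers gave no clear pairing of the Spl/LN groups. A pairing of Spl/LN with VAT libraries was not checked and was not part of the fit. Alternatives used limma 3.58.1 and DESeq2 1.42.0. The scripts were tested on simulated data. Promoter sequences are RefSeq's and gene positions are from GENCODE vM21, both on GRCm38.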

Additional observations from a re-analysis of the deposited data

Results flagged for a closer look

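The effect of Fat1562 differed between Spl/LN and VAT, by the interaction contrast of edgeR's quasi-likelihood test with Benjamini-Hochberg adjustment, for 61 of the genes described above. Values here are the log2 fold change in Spl/LN minus that in VAT. Most of the 61 genes were described for their Spl/LN change, which is part of this contrast, so their number reflects that choice too. The VAT adjuvant group held only 2 libraries. Of the 61, 39 had the more positive change in Spl/LN and 22 the more negative one, and 34 stayed called when each of the 11 libraries was left out in turn.

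Among those that stayed called, the more positive changes in Spl/LN were those of Ccr9 (2.82), Itih5 (0.98), Lgals3bp (1.55), Gimap7 (0.92), Cxcr6 (1.67), Egr1 (3.16), Fosl2 (1.79), Junb (0.74), Klrg1 (1.07), Lgals3 (1.85) and Plin2 (2.21). The same direction held for S100a4 (1.21), S100a6 (0.85), Il2rg (0.69), Ifngr1 (0.94), Crem (1.08), Nr4a1 (1.54), Cd69 (1.90), Il10 (2.37), Il1rl1 (1.26), Dgat1 (1.13) and Rora (1.06). The more negative changes were those of Ccr7 (-3.58), Cd83 (-2.61), Prune2 (-3.44), Itgae (-1.34), Lag3 (-3.28), Lrrc32 (-3.06), Slamf6 (-1.43), Smc4 (-0.72), Prc1 (-1.19), Npm1 (-0.68), Top2a (-1.03) and Cd27 (-0.89).

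Calls lost when at least 1 library was left out had more positive changes in Spl/LN for Tubb6 (1.51), Gimap4 (0.78), Pparg (2.45), Srebf2 (1.01), Itga4 (0.73), Itgav (0.70), Itgb3 (1.44) and Il12rb1 (1.00), and for Ddx58 (0.80), Traf1 (0.63), Pmaip1 (1.14), Dnaja1 (1.47), Gimap5 (0.69), Gimap6 (0.60), Klf2 (1.79), Gata3 (0.67) and Icam1 (0.63). They had more negative ones for Capn3 (-1.98), Nod1 (-2.64), Myc (-0.80), Tigit (-0.54), Il6st (-1.09), Socs3 (-0.79), Abcg1 (-0.62), Ddit4 (-0.82) and Rgs1 (-0.61). Ccl1 was at 0 in every Spl/LN Fat1562 and VAT adjuvant library, and its value of -12.35 depends on the prior count and is no measure of size. The library whose absence lost the most of these calls was VAT adjuvant replicate 1, and those of Pparg, Srebf2, Il6st, Il12rb1 and Ddx58 were lost without it alone, while that of Gimap4 was lost only without VAT adjuvant replicate 2.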

How the results depend on the processing

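Without a filter on level, 827 genes were called, 506 higher and 321 lower, and the interaction called 756. DESeq2 called 803, 481 higher and 322 lower, and 777 for the interaction. A change of at least 2-fold left 199, 117 higher and 82 lower. The other filters, median-of-ratios scaling, quantile normalization with limma and a fit of only the 6 Spl/LN libraries called 398 to 604. Leaving out 1 library gave 210 to 516 genes, 141 to 325 higher and 69 to 195 lower, and 261 to 600 for the interaction. The interaction count fell most without VAT adjuvant replicate 1 (261), VAT Fat1562 replicate 2 (288), VAT adjuvant replicate 2 (294) and Spl/LN Fat1562 replicate 2 (327). The share of calls that were higher was 58.8% to 69.8%, against 64.3%. The replicate numbers gave correlations of 0.0066 to 0.033 between same-numbered libraries of the Spl/LN groups, under the limit of 0.1 set for a pairing. Not every library correlated best with its own number. With the replicate block on the 6 Spl/LN libraries, 363 genes were called, 227 higher and 136 lower. Of 148 called genes followed, 84 stayed called in all alternatives that tested them and 64 lost the call in at least one. Of the single genes named here, only Mki67, uncalled and near 0, changed direction, and its log2 fold change ran from -0.0035 without adjuvant replicate 2 to 0.26 without adjuvant replicate 1. The alternatives that leave out a VAT library, and those of the interaction other than the scaling and the tool, were added after seeing the data. The cause of these differences was not tested. Depth limits genes of low count most, and without molecular identifiers PCR copies add to the error.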
